A study of Saccharomyces cerevisiae with 9 samples.

Results

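Messenger RNA levels of 31 genes for subunits of the yeast 26S proteasome were measured on 9 Agilent 2-colour arrays, which carried probes for 6256 genes. The members were taken from a list of core and regulatory particle subunits and matched by gene name or systematic name, and all 31 had a probe. Of these genes, 14 encode the core particle and 17 the regulatory particle. The budding yeast strains were CY1272, in which a lysine of histone H2B is replaced by arginine (Htb1_K123R) and with htb2_delta0, BY10809 with ubp8_delta0, and CY1383, which carries all 3 alleles. They are called K123R, ubp8 and K123R ubp8 below. Each was compared with the wild type BY4742 on 2 arrays, with the mutant RNA in Cy5 on array 1 and in Cy3 on array 2. K123R was also compared with BY13026, which carries htb2_delta0, on 3 arrays, of which array 2 had the K123R RNA in Cy5 and the others had it in Cy3. Both K123R strains lack HTB2, and in the comparison with BY13026 the reference lacks it too. The lysine is where Rad6 and Bre1 attach ubiquitin to H2B, and Ubp8, a subunit of the SAGA coactivator, removes it. The design text describes replicate arrays as biological, and no label says whether they shared a wild-type culture, so p-values measure the spread between arrays, which may be partly technical.

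HTB2 and UBP8 were read first as a check of genotype. HTB2 read −3.68 and −3.87 on the log2 scale in K123R against wild type and −3.16 and −3.64 in K123R ubp8. In K123R against htb2 it read −0.97, −0.06 and −0.71, a called fall (−0.45 ± 0.10 SE, adjusted p = 0.0200 by limma). That call arose although the labels give both of these strains the same deletion. UBP8 read −2.54 and −2.08 in ubp8 and −2.32 and −2.40 in K123R ubp8. The auxotrophic marker LEU2 rose by 3.70 ± 0.20 (SE) in K123R against wild type but read −0.21 ± 0.08 in K123R against htb2, and the normalised LEU2 signal of the CY1272 channel was 2891 and 3368 on the arrays against wild type and 105 to 165 on those against htb2. The RNA labelled CY1272 thus differed in LEU2 between these comparisons. The marker HIS3 rose by 3.17 ± 0.37 in K123R against wild type, by 2.86 ± 0.37 in K123R ubp8 and by 3.63 ± 0.09 in K123R against htb2. Of the 4 alpha-cell genes measured, 2 fell in K123R, 0 in ubp8, 2 in K123R ubp8 and 4 against htb2 by limma. Over all genes 10.1%, 0.961%, 10% and 16.3% fell in these comparisons. In ubp8, 1 of the 4 had an unadjusted p under 0.05, with an estimate of 0.45. Of 6 a-cell genes 0 passed in any direct comparison by limma. At an unadjusted p under 0.05 there were 2 of the 6 in ubp8, 1 in K123R ubp8, 0 in K123R and 0 against htb2. The part of marker and strain background in the results below was not tested.

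The 26S proteasome degrades proteins tagged with ubiquitin. Its core particle is a barrel of stacked rings, in which alpha subunits form the gates and beta subunits, among them the proteases Pre3, Pup1 and Pre2, line the cutting chamber. The regulatory particle caps the barrel: its base holds a ring of Rpt ATPases that unfold and thread the substrate, and its lid holds Rpn11, which cuts the ubiquitin chain off. In yeast the transcription factor Rpn4 activates most proteasome genes, and the proteasome in turn degrades Rpn4, a loop that keeps subunit messages at matched levels. The ubiquitin on H2B that is absent in K123R is a single mark on chromatin and not a tag for degradation.

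All spots of the proteasome genes were well above background in both colours on every array (477 of 477 spot readings), and 0 were saturated. Each gene had 1 or 2 spots. The scanner software marked 5.66% of these spots as outliers on the arrays against wild type and 32.7% on the arrays against htb2, where it marked 18.8% to 19.0% of the spots of all genes. As marked spots were left out, 29 members had a value on all 6 arrays against wild type, and 24 had one on all 3 arrays against htb2. PRE2 had no value against htb2. Against htb2, 247 genes, 3 of them members, were measured on 1 array alone. Their p-values rest on the variance of other genes, so such a gene is given below as its value with no error and no call, although the counts over all genes include 18 of them rising and 24 falling. A log2 ratio above 0 means more RNA in the mutant, and because RNA came from whole cultures, fewer cells making a message and less message per cell cannot be told apart.

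K123R against wild type asks which messages change when H2B cannot be ubiquitylated and HTB2 is absent. Few proteasome genes passed the test. Only RPT3, which encodes an ATPase of the base, passed (adjusted p under 0.05), so 1 of 31 members rose and 0 fell, against 11% of all genes rising and 10.1% falling. RPT3 read 0.24 on array 1 and 0.29 on array 2, a rise of 0.26 ± 0.06 (SE, n = 2 arrays) or 1.20-fold (adjusted p = 0.0356 by limma). Values after ± are standard errors throughout. Both arrays lay above 0 and close together. The median over the 31 members was 0.10, with 25 of them above 0, against a median of −0.0020 and 49.6% above 0 among all genes. That median rested on array 1, where it was 0.16 with 27 of 31 above 0, while on array 2 it was 0.0063 with 15 of 30 above 0.

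By the median of its estimates the ATPase ring stood highest of the subcomplexes in K123R, though on array 2 the base non-ATPase genes had the higher median (0.24 against 0.15). All 6 RPT genes had estimates above 0, with a median of 0.20, and 4 of them had an unadjusted p under 0.05. Over the 31 members that share was 25.8% (8 genes), against 36.6% of all genes. RPT5, whose product helps open the gate of the core particle, read 0.18 and 0.36 (0.27 ± 0.09, adjusted p = 0.0972). Its arrays agreed in sign and differed in size, and it did not pass. RPN1 and RPN2, the large scaffold subunits of the base, had estimates of 0.24 ± 0.09 and 0.17 ± 0.09 and did not pass. The 8 lid genes had a median of 0.09 and ranged from −0.22 to 0.15. The lowest lid gene was RPN11, the deubiquitylating subunit, at −0.06 and −0.38 (−0.22 ± 0.13, adjusted p = 0.301). With the replicate block described below RPN11 fell (adjusted p = 9.75e-04 by limma).

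Core particle genes in K123R split by array, and so also by the dye in which the mutant was read. On array 1, 12 of 14 were above 0, with a median of 0.16. On array 2, 2 of 13 were above 0, with a median of −0.06. The protease gene PRE2 had its value from array 1 alone (0.31), and with the other dye missing this is the highest estimate of the 31. Its error of 0.13 (adjusted p = 0.168) comes from the spread of PRE2 in the other 2 mutants, moderated by limma. The lowest core particle estimates were PRE3, also a protease, at −0.05 and −0.32 (−0.18 ± 0.10), and the alpha-ring gene PRE6 at 0.15 and −0.47 (−0.16 ± 0.26). PRE6 showed the same contrast in all 3 mutants, with 0.21 and −0.50 in ubp8 and 0.23 and −0.48 in K123R ubp8. Array number and dye orientation coincide on these arrays, so they cannot be told apart. Over the proteasome genes with both arrays in K123R, 13 of 30 differed in sign between the arrays, against 31.0% of all genes. SCL1, the alpha-ring gene with the smallest adjusted p of the core particle, read 0.21 and 0.14 (0.18 ± 0.05, adjusted p = 0.0591).

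When the array number, which here is the dye orientation, was entered as a replicate block, 16 of 31 members rose in K123R and 4 fell. That fit called 33.5% of all genes rising and 32.7% falling. The rising members included 5 of 6 ATPase genes, 3 of 3 base scaffold and receptor genes and 4 of 8 lid genes, and in the core particle 4 rose and 3 fell. The estimates themselves did not move for genes with both arrays: RPT5 stayed at 0.27, now ± 0.03 (adjusted p = 2.99e-04). With the slide as a block, 7 members passed, 4 of them rising, against 19.8% of all genes rising and 19.5% falling. The slide fit has no dye term, and the K123R and ubp8 arrays that shared a slide had opposite dyes. Dye is therefore not balanced in it, and PRE6 was among the members it called. The RPT3 call without a block did not hold when any one of the 6 arrays was left out (adjusted p 0.0596 to 0.264).

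**Figure D1:**
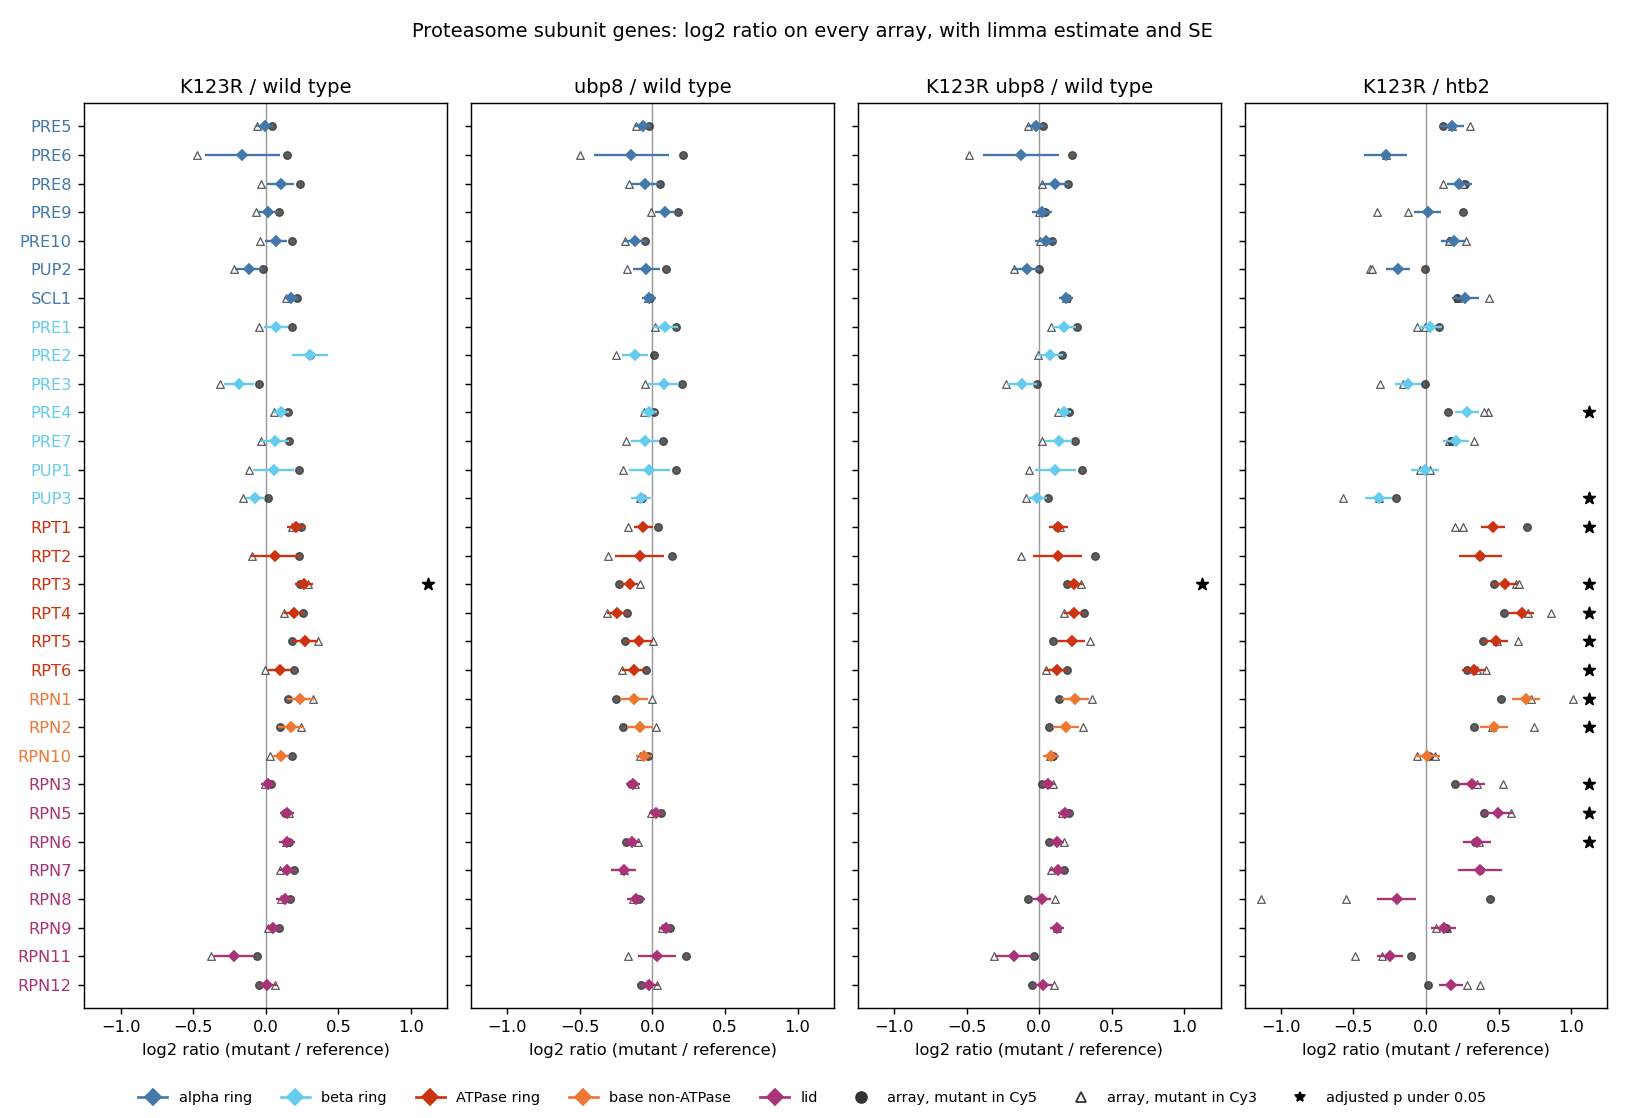
Log2 ratio (x axis, mutant over reference) of the 31 proteasome genes (rows, coloured by subcomplex) in the 4 direct comparisons. Circles are arrays with the mutant in Cy5, triangles those with it in Cy3, diamonds with bars the limma estimate and its SE, and stars mark adjusted p under 0.05: RPT3 alone has one in K123R and in K123R ubp8, no gene has one in ubp8, and 12 genes have one against htb2.

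In K123R ubp8, where Ubp8 is missing as well, 1 of 31 proteasome genes rose, again RPT3, and 0 fell, against 9.88% and 10% of all genes. The comparisons of the 3 mutants with wild type share that reference, so their values are set side by side and not counted as separate evidence. RPT3 read 0.19 and 0.29 (0.24 ± 0.06, 1.18-fold, adjusted p = 0.0467). RPN1 read 0.13 and 0.36 (0.25 ± 0.09, adjusted p = 0.123) and the ATPase gene RPT4 read 0.31 and 0.17 (0.24 ± 0.07, adjusted p = 0.0655). These are the highest estimates, and RPN1 and RPT4 did not pass. The lowest were RPN11 (−0.17 ± 0.13), PRE6 (−0.13 ± 0.26) and PRE3 (−0.12 ± 0.10). The median was 0.12, with 25 members above 0, and 19 of 31 lay above 0 on both arrays, against 33.1% of all genes.

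The direct contrast of K123R ubp8 with K123R, both read through wild type, called 0 of 31 members by limma, and 0 had an unadjusted p under 0.05. It also called 0 of 6246 genes, with 43 at an unadjusted p under 0.05. Even UBP8, which is deleted in K123R ubp8 and not in K123R, did not pass in it (−2.16 ± 0.17, adjusted p = 0.0933 by limma). The lack of calls therefore does not show that the 2 strains have equal levels. The median difference was 0.02 and ran from −0.07 to 0.08 without one array, and the member differences ran from −0.23 to 0.10. The lower end was PRE2, which has a single array in K123R. With the dye orientation as replicate block, 18 members rose and 4 fell in K123R ubp8, where 32.3% of all genes rose and 33% fell, and 0 members passed in its contrast with K123R. With the slide as a block 5 rose and 0 fell, against 16.8% and 16.1% of all genes. The RPT3 call was lost without any one of the 6 arrays (adjusted p 0.0739 to 0.299) and on the scanner software's processed signals (adjusted p = 0.0535).

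Loss of UBP8 alone gave mostly negative estimates, none of which passed. In ubp8 against wild type 0 of 31 members rose and 0 fell by limma, with 4 at an unadjusted p under 0.05, where 1.84% of all genes rose and 0.961% fell. The median was −0.07, with 25 of 31 members below 0, against −0.01 over all genes. It was −0.0052 on array 1, with 15 of 30 above 0, and −0.11 on array 2, with 5 of 31 above 0. RPT4 was lowest, at −0.18 and −0.31 (−0.24 ± 0.07, adjusted p = 0.124). RPN7, a lid subunit with a value on array 2 alone, read −0.20. RPT3 read −0.23 and −0.09 (−0.16 ± 0.06, adjusted p = 0.215). Both arrays of RPT4 and of RPT3 were below 0. All 6 ATPase genes and all 3 base non-ATPase genes had estimates below 0.

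The highest members in ubp8 were small. The lid gene RPN9 read 0.12 and 0.07 (0.09 ± 0.05), PRE1 of the beta ring 0.16 and 0.02 (0.09 ± 0.08), and PRE9, whose product gates the alpha ring, 0.18 and −0.01 (0.08 ± 0.07). The arrays of 16 of 30 members differed in sign, against 42.0% of all genes. The median of the core particle was 0.06 on array 1 and −0.14 on array 2, and that of the regulatory particle −0.08 and −0.10. With the dye orientation as replicate block, 12 members fell and 2 rose, and this fit called 24.7% of all genes falling and 25.3% rising. Of the 12, 4 were ATPase genes, led by RPT4 (adjusted p = 8.06e-04). With the slide as a block 0 members passed by limma, against 9.21% of all genes rising and 5.75% falling, and RPT3 had an adjusted p of 0.0994.

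**Figure D2:**
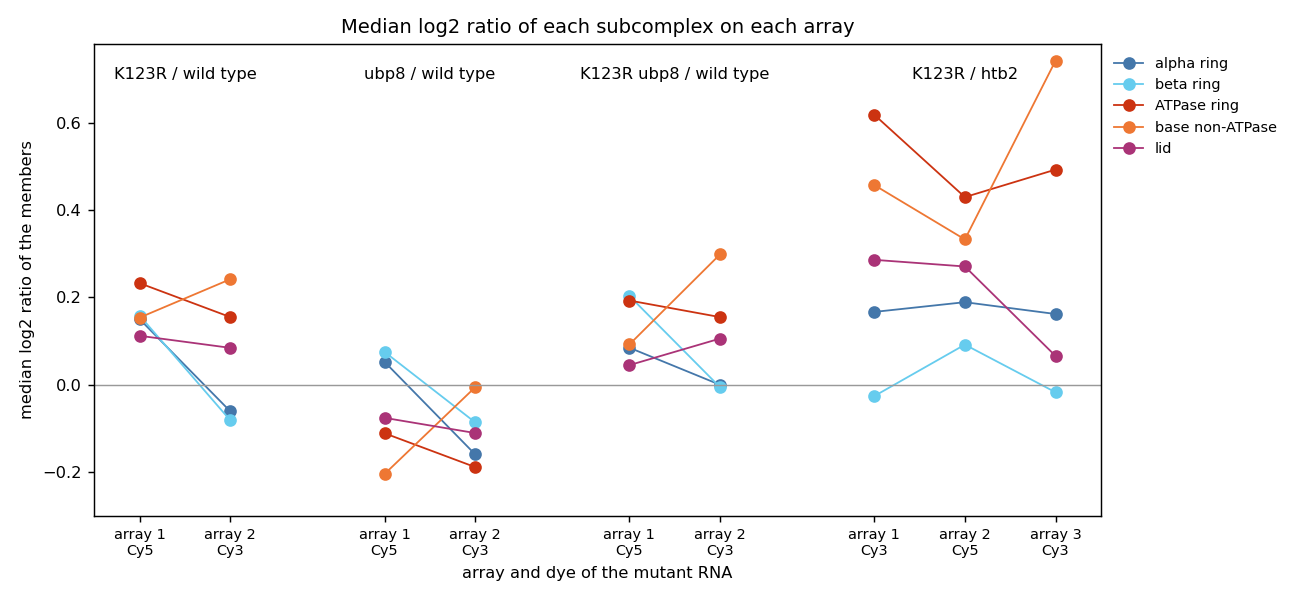
Median log2 ratio (y axis) of the genes of each subcomplex on each of the 9 arrays (x axis, with the dye of the mutant RNA). In the 3 comparisons with wild type the alpha and beta rings lie above 0 on array 1 and at or below 0 on array 2. The ATPase ring, the base non-ATPase genes and the lid keep their sign on both arrays, positive in K123R and K123R ubp8 and negative in ubp8.

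K123R and ubp8 were then set against each other, in a contrast that runs through wild type. RPT3 was the 1 member of 31 that differed, higher in K123R than in ubp8 by 0.42 ± 0.08 (adjusted p = 0.0470), while 3.66% of all genes were higher and 4.56% lower. RPT4 differed by 0.44 ± 0.10 (adjusted p = 0.0555) and did not pass. The median difference was 0.32 over the ATPase ring, 0.25 over the regulatory particle and 0.07 over the core particle, against 0.01 over all genes. With the dye orientation as replicate block, 20 members were higher in K123R and 2 lower, against 29% and 27.6% of all genes. With the slide as a block 6 were higher and 3 lower, against 13% and 14.4%. That fit does not balance the dyes of K123R and ubp8, and the members it called included PRE6. With the length trend described below removed, RPT3 and RPT4 were higher and 0 were lower, against 4.52% and 5.35%. The 2 arrays of K123R ubp8 and ubp8 that shared a slide and a dye allow a reading within 1 slide: there 3 of 31 members were higher in ubp8, with a median difference of −0.19 against −0.0037 over all genes. The K123R and ubp8 arrays that shared a slide had opposite dyes, and there 13 of 29 were higher in ubp8, with a median of −0.04. RPT3 lost its call when any one of the 6 arrays was left out.

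K123R against htb2 removes the HTB2 deletion from the comparison, since both strains carry it. Here genes of the regulatory particle rose. Of its 17 genes 10 rose and 0 fell, and of 13 core particle genes tested 1 rose and 1 fell, where 15% of all genes rose and 16.3% fell. The median was 0.37 over the regulatory particle, 0.03 over the core particle and −0.02 over all genes. RPT1 to RPT6 all had estimates above 0, and 5 of the 6 passed.

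Of the base, RPN1 had the largest rise, at 0.72, 0.51 and 1.01 on arrays 1 to 3 (0.69 ± 0.10, 1.61-fold, adjusted p = 0.00873). RPT4 read 0.70, 0.54 and 0.86 (0.66 ± 0.09, 1.58-fold, adjusted p = 0.00743). RPT3 read 0.62, 0.46 and 0.64 (0.55 ± 0.08, 1.46-fold, adjusted p = 0.0101). In these genes all 3 arrays lay well above 0, and array 2, the one with K123R in Cy5, was the lowest. RPT5 read 0.64, 0.39 and 0.49 (0.48 ± 0.09, adjusted p = 0.0138) and RPN2 read 0.46, 0.33 and 0.74 (0.47 ± 0.10, adjusted p = 0.0192). RPT1 differed from the others in its arrays, with 0.25, 0.70 and 0.20 (0.46 ± 0.08, adjusted p = 0.0137), so its highest value came with K123R in Cy5. RPT6 rose by 0.33 ± 0.08 (adjusted p = 0.0317). RPT2 had a value on array 2 alone (0.38) and is given no call, though the counts of genes tested include it. The ubiquitin receptor gene RPN10, the third base gene outside the ATPase ring, read 0.06, 0.02 and −0.06.

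In the lid, RPN5, RPN3 and RPN6, which encode structural subunits, rose. RPN5 read 0.59 and 0.40 on arrays 1 and 2 (0.49 ± 0.10, adjusted p = 0.0192), with array 3 missing. RPN3 rose by 0.32 ± 0.09 and RPN6 by 0.35 ± 0.10. RPN7, with array 2 alone, read 0.37 and is likewise given no call. RPN9 (0.12 ± 0.08) and RPN12 (0.17 ± 0.08) did not pass. RPN8, the partner of Rpn11, read −0.55, 0.44 and −1.14 (−0.20 ± 0.13, adjusted p = 0.287), the widest spread of any member. Its sign followed the dye. So did the loss of spots, with 1 of its 2 spots marked as outlier on arrays 1 and 3 and 0 on array 2. RPN11 read −0.30, −0.10 and −0.49 (−0.25 ± 0.09, adjusted p = 0.0793), below 0 on all 3 arrays but not past the threshold.

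In the core particle PRE4 of the beta ring rose, with 0.42, 0.15 and 0.40 (0.28 ± 0.08, adjusted p = 0.0483). PUP3, also of the beta ring, fell, with −0.32, −0.21 and −0.57 (−0.33 ± 0.09, adjusted p = 0.0449). The alpha ring had 0 members passing by limma, with 2 of 7 at an unadjusted p under 0.05, and a median of 0.18. PRE6, with array 3 alone, read −0.28 and is given no call, though it is counted among the genes tested. The beta ring had a median of 0.01 over 6 genes. The count of 12 passing members became 2 (RPT4 and RPN1) without array 1, 14 without array 2 and 6 without array 3. Without array 2 both remaining arrays had K123R in Cy3, so dye is not balanced there. The 14 lacked RPT1 and RPN6 and included RPN8, RPN11, RPN12 and PUP2. Of these RPN8, RPN11 and PUP2 were below 0 on both arrays. On the scanner software's processed signals and on the deposited values the count was 8, with RPN3, RPN6, PRE4 and PUP3 not called. PRE4 and PUP3 were also not called with median normalization, and RPT1 and RPN6 without the dye term. RPT2, RPN5, RPN6, RPN7, PRE6 and PUP1, which lack 1 or 2 arrays, were fitted without the dye term that the other members have.

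**Figure D3:**
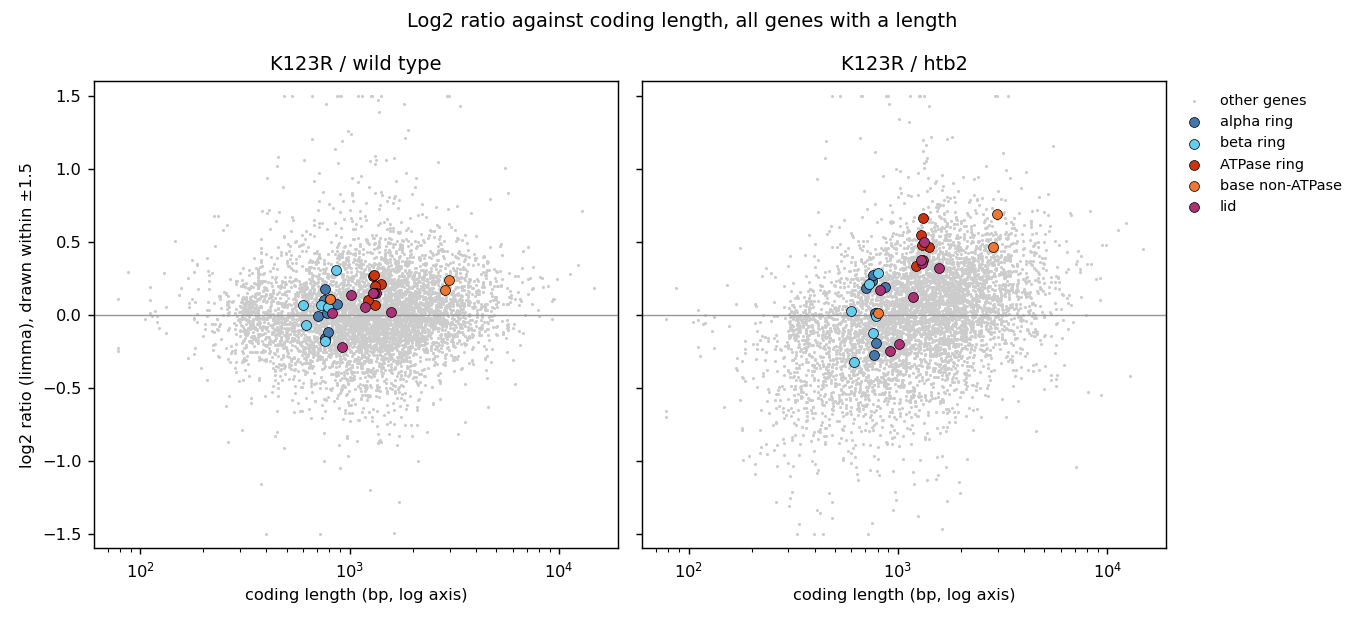
Log2 ratio (y axis, limma estimate) against gene length (x axis, labelled coding length, bp, log scale) for all genes with a length (grey, values past the limits drawn at 1.5 from 0) and for proteasome genes (coloured by subcomplex), in K123R against wild type and against htb2. The lengths include any intron. Against htb2 the grey cloud climbs with length, and the long ATPase and base genes lie above the short core particle genes.

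The log2 ratio against htb2 also moved with the length of the gene. By the RefSeq annotation of assembly R64, core particle genes are 597 to 867 bp long and regulatory particle genes 807 to 2982 bp. These lengths run from start to end of the annotated gene, with any intron included. Over all genes with a length, Spearman's rho between log2 ratio and length was 0.30, 0.35 and 0.42 on the 3 arrays against htb2, and −0.12 to 0.15 on the 6 arrays against wild type. These are descriptions across genes of 1 array, and genes are not independent. Among genes of 1000 to 2000 bp, 19.3% rose against htb2 and 8 of 12 proteasome genes did. Their median was 0.37 against 0.06 for all genes of that class. Among genes up to 1000 bp, 6.50% rose, and 1 of 16 proteasome genes did, with a median of 0.02 against −0.14. In both classes the proteasome median was above that of the class, by more in the class of longer genes.

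With the trend over length removed on each array, 14 of 30 proteasome genes rose against htb2 and 0 fell, where 14.6% of all genes rose and 15.7% fell. The regulatory particle kept 9 rising genes, with RPT4 at 0.61 ± 0.08 and RPN1 at 0.53 ± 0.08, and its median became 0.31. In the core particle 5 rose, namely PRE4 (0.38 ± 0.08), SCL1 (0.38 ± 0.10), PRE8 (0.34 ± 0.09), PRE7 (0.33 ± 0.09) and PRE5 (0.30 ± 0.08), and its median became 0.18. PUP3 was then −0.18 ± 0.08 and RPN3 0.25 ± 0.08 (adjusted p = 0.0678), and neither passed. The medians of the particles were closer with length taken out than before. The part of the length trend in the difference between the particles was not tested further. Against wild type the same step gave 2 rising members in K123R (RPT3 and SCL1), 5 in K123R ubp8 (RPT3, RPT4, RPN5, PRE4 and SCL1) and 0 in ubp8 by limma, against 12%, 11.4% and 2.68% of all genes. In these fits 0 members fell by limma, where 11.6%, 11.7% and 1.46% of all genes fell.

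**Figure D4:**
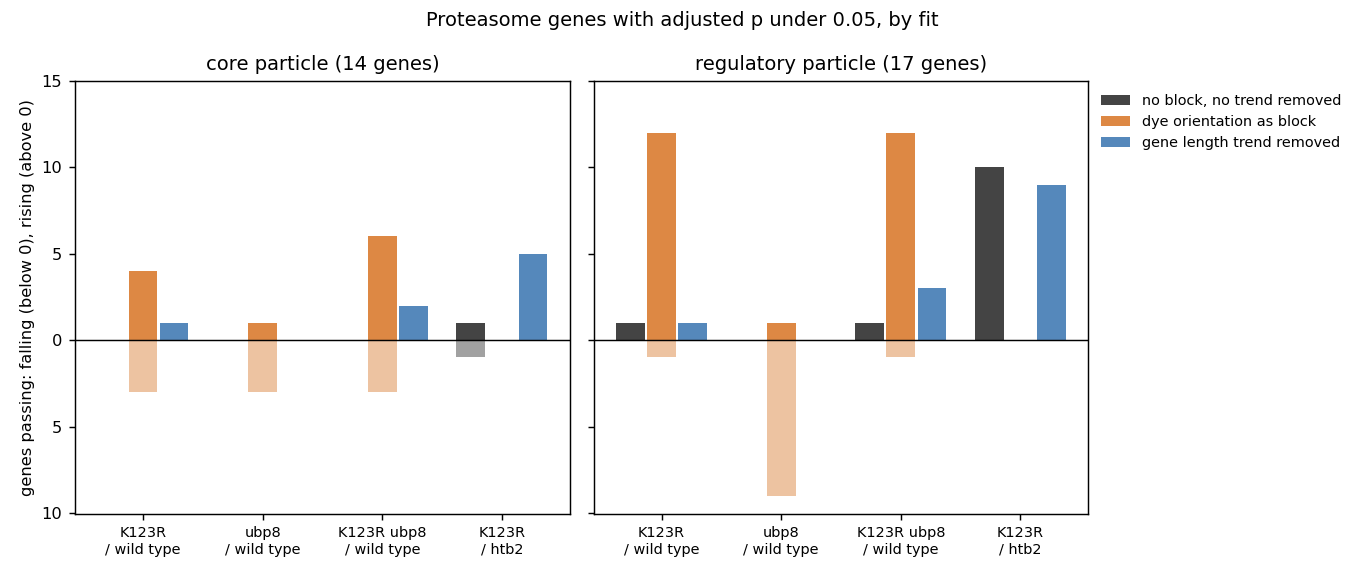
Number of proteasome genes that rose (bars above 0) or fell (paler bars below 0) in each direct comparison, for 14 core and 17 regulatory particle genes, in the fit without a block, with the dye orientation as a block (arrays against wild type only) and with the length trend removed. The regulatory particle has 10 rising genes against htb2 without the length step and 9 with it, and the core particle has 1 and 5.

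Genes that act with the proteasome were read from lists of 48 genes, of which 2 rose and 3 fell in K123R, 0 rose and 1 fell in ubp8, 3 rose and 3 fell in K123R ubp8, and 13 of 47 rose and 7 fell against htb2, 1 of these (UBC1) on a single array. The shares of all genes rising and falling were 11% and 10.1%, 1.84% and 0.961%, 9.88% and 10%, and 15% and 16.3%. With the replicate block 18 of the 48 rose and 14 fell in K123R, 9 and 18 in ubp8, and 19 and 11 in K123R ubp8. In that fit the shares of all genes rising and falling were 33.5% and 32.7%, 25.3% and 24.7%, and 32.3% and 33%. With the length trend removed 7 of 47 rose and 3 fell against htb2, where 14.6% of all genes rose and 15.7% fell. Of 4 genes for proteins that bind the proteasome, 1 rose in K123R, 2 in K123R ubp8 and 3 against htb2. UBP6, whose product is the deubiquitylating enzyme bound to the base, read 0.33 and 0.38 in K123R (0.36 ± 0.05, adjusted p = 0.0118), 0.29 and 0.37 in K123R ubp8 (0.33 ± 0.05, adjusted p = 0.0148) and 0.51, 0.56 and 0.70 against htb2 (0.58 ± 0.09, adjusted p = 0.0101). In ubp8 it read −0.11 and −0.18 and did not pass without a block (adjusted p = 0.191), but fell with the replicate block (adjusted p = 0.0130). The adaptor gene ECM29 rose in K123R ubp8 (0.24 ± 0.05, adjusted p = 0.0319) and against htb2 (0.51 ± 0.09, adjusted p = 0.0142), and BLM10, which encodes an alternative cap of the core particle, rose against htb2 (0.43 ± 0.12, adjusted p = 0.0440). Both genes are long, and with the length trend removed ECM29 read 0.13 in K123R ubp8 (adjusted p = 0.154) and BLM10 0.19 against htb2 (adjusted p = 0.186), while ECM29 kept its call against htb2 (0.28, adjusted p = 0.0463).

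Of 9 assembly factor genes 0 rose in any direct comparison by limma without a block, while 3 fell in K123R, 2 in K123R ubp8 and 2 against htb2. At an unadjusted p under 0.05 there were 3, 3 and 5, and 1 in ubp8. With the replicate block 2 rose and 6 fell in K123R, 2 and 3 in ubp8, and 1 and 4 in K123R ubp8, and with the length trend removed 1 rose and 1 fell against htb2. The shares of all genes called in each of these fits are those given above for the pathway lists. RPN14, a chaperone of the base, fell in K123R, at −0.63 and −0.48 (−0.56 ± 0.07, adjusted p = 0.00706), and in K123R ubp8, at −0.57 and −0.49 (−0.53 ± 0.07, adjusted p = 0.00856). It read −0.21 ± 0.09 against htb2 and did not pass. POC4, part of a chaperone of the alpha ring, fell in K123R (−0.21 ± 0.05), in K123R ubp8 (−0.22 ± 0.05) and against htb2 (−0.55 ± 0.09). ADD66, of another alpha-ring chaperone, fell in K123R (−0.24 ± 0.05), and IRC25, the partner of POC4, fell against htb2 (−0.32 ± 0.08). UMP1, the maturation factor of the core particle, did not pass in any direct comparison without a block, with 0.14 ± 0.10 in K123R, −0.13 ± 0.10 in ubp8, 0.25 ± 0.10 in K123R ubp8 and 0.29 ± 0.09 against htb2. With the replicate block it passed in all 3 mutants (adjusted p = 0.00491, 0.0128 and 5.07e-04 in that order), and with the length trend removed it rose against htb2 (0.49, adjusted p = 0.0210). The small subunit genes SEM1 and RPN13, which are outside the 31, fell against htb2 (−0.63 ± 0.14 and −0.42 ± 0.10). With the replicate block SEM1, RPN13 and IRC25 also fell in K123R (adjusted p = 0.00210, 8.20e-04 and 3.20e-04 by limma). SEM1, IRC25, POC4 and RPN13 have lengths of 270 to 540 bp, among the short genes whose ratios against htb2 ran low. With the length trend removed SEM1 (−0.37, adjusted p = 0.0568), RPN13 (−0.23, adjusted p = 0.0985) and IRC25 (−0.15, adjusted p = 0.192) no longer passed, and POC4 did (−0.35, adjusted p = 0.0273).

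RPN4, the activator of proteasome genes, read 0.08 and −0.07 in K123R (0.01 ± 0.08), 0.17 and −0.06 in K123R ubp8 (0.06 ± 0.08) and −0.13 and −0.10 in ubp8 (−0.12 ± 0.08), and did not pass in these. Against htb2 it fell, with −0.43, −0.40 and −0.35 (−0.40 ± 0.08, adjusted p = 0.0204), with all 3 arrays close together, and it kept that call with the length trend removed (−0.47, adjusted p = 0.0123). HSF1, the heat shock transcription factor, rose against htb2 (0.42 ± 0.10, adjusted p = 0.0289) but did not pass with the length trend removed (0.29, adjusted p = 0.0573), and the drug response factor gene PDR3 fell in K123R ubp8 (−0.19 ± 0.05, adjusted p = 0.0443).

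Among ubiquitin genes, the polyubiquitin gene UBI4 fell against htb2, with −0.39, −0.47 and −0.76 (−0.52 ± 0.11, adjusted p = 0.0177), and had estimates of −0.22 ± 0.07 in K123R, 0.12 ± 0.07 in ubp8 and −0.15 ± 0.07 in K123R ubp8 that did not pass without a block. With the replicate block it fell in K123R (adjusted p = 0.00217) and in K123R ubp8 (adjusted p = 0.0106) and rose in ubp8 (adjusted p = 0.0349). RPL40A, RPL40B and RPS31, which encode ubiquitin fused to ribosomal proteins, were saturated on all 9 arrays and have no usable ratio. UBC5, which encodes an enzyme that conjugates ubiquitin to short-lived proteins, rose in K123R, with 0.69 and 0.61 (0.65 ± 0.05, adjusted p = 0.00344), and in K123R ubp8, with 0.61 and 0.64 (0.63 ± 0.05, adjusted p = 0.00399), and fell in ubp8, with −0.29 and −0.34 (−0.32 ± 0.05, adjusted p = 0.0460). Against htb2 it rose by 0.42 ± 0.09 (adjusted p = 0.0186). The ubiquitin-activating gene UBA1 and the ligase gene UBR1 rose against htb2 (0.52 ± 0.12 and 0.47 ± 0.09), and UBC1, a conjugating enzyme gene, read −0.62 on the 1 array that measured it. CDC48, which extracts ubiquitylated proteins, and its cofactor gene SHP1 rose against htb2 (0.54 ± 0.10 and 0.42 ± 0.09), as did the deubiquitylating enzyme genes DOA4 (0.40 ± 0.09) and UBP3 (0.35 ± 0.09). CDC48 was saturated on 1 of the 3 arrays. With the length trend removed UBR1 (0.24, adjusted p = 0.0651), DOA4 (0.25, adjusted p = 0.0623) and UBP3 (0.21, adjusted p = 0.0975) did not pass, while UBC5, UBA1, CDC48, SHP1 and UBI4 kept their calls.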

How the data were processed

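Per the labels, RNA was isolated on a silica matrix, linearly amplified and labelled with Cy3 or Cy5. The authors measured spot intensity with Agilent Feature Extraction, per the file headers, in an older version for the arrays against wild type than for those against htb2. The deposited series values are log10 ratios of mutant over reference, used as an alternative. Growth conditions are not given in the sources used here.

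From the mean and median background intensities, log2 ratios were computed with limma 3.58.1 in R 4.3.3 (normexp, offset 50, loess within array, control spots weighted 0). Outlier spots were left out, saturated spots kept and spots of a gene averaged. A gene was tested if well above background in at least 1 colour on 3 of 6 or 2 of 3 arrays. The 6 arrays against wild type entered 1 limma fit without a dye term (3 residual degrees of freedom). The 3 arrays against htb2 had a gene-specific dye term (1 residual degree of freedom), and 795 genes that lacked an array were fitted by the mean alone. P-values were adjusted over all genes (Benjamini-Hochberg, threshold 0.05), and the fits were tested on simulated data. Shared wild-type spread makes p-values approximate.

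Array numbers equal dye orientation in the labels. Half-differences between the 2 arrays of a mutant correlated at 0.87 to 0.89 between mutants across 6131 genes. Counts with the replicate block are therefore given beside the main counts, and gene values with it for only some of the genes it changed. Gene lengths, from start to end of the annotation, were matched for 92.0% of genes (RefSeq, assembly R64). The length step (loess, span 0.5) and the slide block were added after the data were seen. The members and lists were chosen with earlier results of these data known. Named genes are the passing members (up to 6 by size), the 3 highest and 3 lowest per comparison, RPN4, UMP1, UBI4, UBP6, HTB2 and UBP8, and up to 3 passing genes per pathway list. Further members were named after their values were seen. Precision is limited by the number of arrays.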

Additional observations from a re-analysis of the deposited data

Results flagged for a closer look

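RPT3 differed between K123R and ubp8 by 0.42 on the log2 scale in the contrast of these strains, with 0.26 in K123R and −0.16 in ubp8. Outside the proteasome, 5 genes named above also differed in this contrast: UBC5 by 0.97, UBP6 by 0.50, SHP1 by 0.37, POC4 by −0.33 and RPN14 by −0.63. The adjusted p by limma was 0.00894 for UBC5, 0.0284 for UBP6, 0.0494 for SHP1, 0.0496 for POC4 and 0.0281 for RPN14. SHP1 and POC4 lay close to the threshold, and POC4 did not pass with the length trend removed (−0.27, adjusted p = 0.0611). Over all genes 3.66% were higher in K123R than in ubp8 and 4.56% lower. Both arrays of UBC5 and of UBP6 were above 0 in K123R and below 0 in ubp8.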

How the results depend on the processing

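The number of proteasome genes passing moved with several settings. In K123R it was 1, and 3 with median normalization, 20 with the replicate block (dye orientation), 0 on its own 2 arrays, 7 with the slide as a block, 2 with the length trend removed and 0 without any one array. The K123R median of 0.10 ran from 0.0063 to 0.16 without one array. In ubp8 the number was 0, and 14 with the replicate block, and the median of −0.07 ran from −0.11 to −0.0052 without one array. In K123R ubp8 it was 1, and 0 on the scanner software's processed signals or the deposited values, 3 with median normalization, 2 without background subtraction, 22 with the replicate block, 0 on its own 2 arrays, 5 with the slide block, 5 with the length trend removed and 0 without any one array, while the median of the members ran from 0.0807 to 0.123 without one array. Against htb2 it was 12, 8 on processed or deposited values, 10 without the dye term, 2 to 14 without one array, with medians of 0.22 to 0.26, and the median was 0.30 with the length trend removed. In K123R against ubp8 it was 1, and 0 on processed or deposited values, 3 with median normalization, 22 with the replicate block, 9 with the slide block, 2 with the length trend removed and 0 without any one array. The causes of these changes, among them the lower power of fits with fewer arrays, were not tested. Of 1000 values of named genes under alternatives, 831 kept direction and side of the threshold, 124 kept direction but lost the call, 38 gained one, 7 uncalled values changed sign and 0 called values did. The date of image extraction in the file headers was not run as a block, because it equals the group or slide split. The replicate block could not be fitted against htb2, where the dye term already holds the orientation.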
